A study of Mus musculus with 12 samples.

Results

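The 10 circadian clock genes Arntl (also called Bmal1), Clock, Per1, Per2, Per3, Cry1, Cry2, Nr1d1, Nr1d2 and Dbp were followed in endothelial cells of mouse mesentery and epididymal fat. They were taken by symbol from the 27825 genes of the table, and all 10 were listed once and passed the minimum mean of 10 normalized counts. Male ROSA26-eYFP+/+ Cdh5-CreERT2+ mice ate a tamoxifen diet for 2 weeks from 6 weeks of age, which turned on a yellow fluorescent protein in cells in which the Cdh5-driven Cre was active. At 8 weeks of age 1 arm began normal chow, with 5.8% of fat, and the other a high fat diet, with 60%, and both arms kept their food for 12 to 13 weeks. All 4 groups carried the same alleles and received tamoxifen. Mesentery, the membrane that holds the vessels of the gut, or epididymal fat was dissected and digested with actinomycin D, a blocker of transcription, and living fluorescent cells were sorted. The tissue of 6 mice went into each sample, so each library is a pool. The 3 libraries of each group carry the letters A, B and C. The labels also give library numbers, which on chow are 50, 51 and 87 for A, B and C, and on the high fat diet 88, 52 and 53. They state 2 independent replicates without saying how these relate to the 3 letters, so the p-values measure the spread between libraries, which may be partly technical. Neither the hour of collection nor the lighting schedule is given in the sources used here.

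The clock of mammalian cells is a feedback loop of transcription. ARNTL and CLOCK form a pair that binds E-boxes and turns on the Per and Cry genes, the nuclear receptors Nr1d1 and Nr1d2 (REV-ERB alpha and beta), and Dbp, a transcription factor of the PAR-bZIP family that acts on D-boxes. PER and CRY proteins then block the pair, and REV-ERB proteins repress Arntl and Clock, so that Arntl RNA and Dbp or Nr1d1 RNA peak at opposite times of day. Endothelial cells hold such a clock, and clock gene RNA in a tissue depends on the hour at which it is taken.

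Values are the authors' normalized counts, which compare libraries for 1 gene but not the levels of different genes. Library totals ran from 8348897 to 25397963 reads, and 3 reads corresponded to between 2.12 and 4.22 normalized counts. Endothelial markers were read in all libraries, with Cdh5 between 2172 and 4822 and Pecam1 between 3730 and 12974 normalized counts. Genes of other cell types were also read. In bulk samples fewer cells of a type and less RNA per cell cannot be told apart.

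Promoters are shown for Nr1d1, Dbp and Cry2, which were higher in epididymal fat on chow, and for Cry1, whose promoter holds the E-box and its variant side by side. They come from RefSeq (GRCm38.p6), whereas the submitters' processing notes name mm39. The RefSeq table matched 9 of the 10 members, with 13 starts in all, and Per2 was not matched. Each line is the 250 bases before the start, 5′ to 3′ on the strand of the gene, with capitals for an E-box (CACGTG), an E-prime-box (CACGTT, read as AACGTG on the other strand), a D-box (TTATGTAA), a RORE half-site (AGGTCA) or a CRE (TGACGTCA), searched on both strands.
Nr1d1, chr11:98775378-98775627, minus strand: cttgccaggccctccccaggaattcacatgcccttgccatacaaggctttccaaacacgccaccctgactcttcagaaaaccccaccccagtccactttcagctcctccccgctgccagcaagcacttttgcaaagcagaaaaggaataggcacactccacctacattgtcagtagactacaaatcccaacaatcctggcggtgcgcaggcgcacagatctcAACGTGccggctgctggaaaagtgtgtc
Dbp, chr7:45704997-45705246, plus strand: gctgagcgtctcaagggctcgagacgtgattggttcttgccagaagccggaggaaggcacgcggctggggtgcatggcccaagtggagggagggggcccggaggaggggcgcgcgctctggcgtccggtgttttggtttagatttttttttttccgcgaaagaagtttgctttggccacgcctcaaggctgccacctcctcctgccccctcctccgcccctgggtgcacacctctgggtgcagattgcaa
Cry2, chr2:92434070-92434319, minus strand: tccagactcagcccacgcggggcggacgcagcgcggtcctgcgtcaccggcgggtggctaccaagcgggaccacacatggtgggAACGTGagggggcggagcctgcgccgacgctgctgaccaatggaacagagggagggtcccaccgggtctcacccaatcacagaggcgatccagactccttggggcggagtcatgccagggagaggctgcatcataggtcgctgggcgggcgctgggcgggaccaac
Cry1, chr10:85185055-85185304, minus strand: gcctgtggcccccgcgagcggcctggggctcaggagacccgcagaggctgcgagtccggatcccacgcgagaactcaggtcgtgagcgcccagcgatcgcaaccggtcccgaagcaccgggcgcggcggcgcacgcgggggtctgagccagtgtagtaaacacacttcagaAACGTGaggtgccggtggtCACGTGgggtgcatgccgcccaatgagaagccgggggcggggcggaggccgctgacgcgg

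An E-prime-box lay 28 bases before the Nr1d1 start, 166 before the Cry2 start and 79 before the Cry1 start, and an E-box lay 60 bases before the Cry1 start. The printed Dbp stretch holds none of the motifs, which says only that these letters are not in this window. Among the 9 genes the E-box was found in 2 (Per1 and Cry1), the E-prime-box in 3 and the D-box in 1 (Per3). The RORE half-site was found in 3 (Clock, Per1 and Nr1d2) and the CRE in 0. Counted by start, these were 2, 3, 1, 3 and 0 of 13 windows. Of 32851 promoter windows of this length in the table, 6.02% held the E-box, 3.85% the E-prime-box, 0.819% the D-box, 14.0% the RORE half-site and 1.55% the CRE. Matches are letters in a sequence and not measured binding.

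On chow, RNA of Nr1d1, Dbp and Cry2 was higher and that of Clock lower in epididymal than in mesenteric endothelial cells. These 4 of 10 members (3 higher, 1 lower) passed an adjusted p of 0.05 in limma, against 12.8% of the 22238 genes tested. The groups did not overlap for 5 of 10 members, against 28.7% of all genes. The median log2 difference was 0.21 over the members and -0.08 over all genes.

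Nr1d1, the repressor of Arntl, had the widest difference. Its levels were 91.1, 116 and 12.7 in mesentery libraries A, B and C and 758, 761 and 243 in epididymal fat. Every epididymal library was above every mesenteric one, and library C was the lowest of both groups, with 9 reads in mesentery. The difference was 3.30 on the log2 scale (SE 0.66), a 9.87-fold higher level, with an adjusted p of 0.0052. Its relative Nr1d2, with similar action, had 156, 127 and 124 in mesentery against 267, 281 and 139 in epididymal fat. The groups overlapped through epididymal library C, and the log2 difference of 0.69 (95% interval 0.06 to 1.33) did not pass (adjusted p = 0.157).

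Dbp, an output gene of the clock, was read at 21.6, 23.3 and 36.6 in mesentery and at 252, 207 and 73.5 in epididymal fat. Again no library overlapped, and epididymal library C was the lowest of its group. The log2 difference was 2.52 (SE 0.69), or 5.74-fold, with an adjusted p of 0.0290. The mesenteric values rest on 19 to 26 reads per library.

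Among the repressors of the ARNTL and CLOCK pair, Cry2 had 197, 133 and 122 in mesentery and 519, 422 and 287 in epididymal fat. The groups did not overlap, and Cry2 was 2.69-fold higher in epididymal fat (log2 difference 1.43, SE 0.33, adjusted p = 0.0130). Cry1, its close relative, had 336, 240 and 225 against 361, 280 and 277, with overlapping groups and a log2 difference of 0.21 (95% interval -0.47 to 0.88). The 3 Per genes overlapped as well. Their log2 differences were 0.03 for Per1 (-1.18 to 1.24), 0.21 for Per2 (-1.58 to 2.01) and -0.08 for Per3 (-1.05 to 0.89), and these intervals leave room for differences of more than 1 log2 unit in some direction for each.

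The activators lay on the other side. Clock had 1033, 980 and 749 in mesentery and 442, 514 and 571 in epididymal fat, with no overlap. Its level in epididymal fat was 0.556 of that in mesentery (log2 difference -0.85, SE 0.22, adjusted p = 0.0220). Arntl, its partner, had 678, 737 and 572 against 476, 539 and 531. These groups did not overlap either, but the log2 difference of -0.35 (95% interval -0.77 to 0.06) did not pass (adjusted p = 0.278).

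Nr1d1 passed without any 1 of the 6 chow libraries, with log2 differences from 2.33 without mesentery library C to 3.88 without mesentery library B. Without mesentery A or mesentery B the calls were 2 (Cry2 and Nr1d1), without epididymal A or epididymal B 1 (Nr1d1), without epididymal C 5 and without mesentery C 4, while calls over all genes were 1659, 1950, 1523, 1516, 2833 and 3278 in that order.

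**Figure D1:**
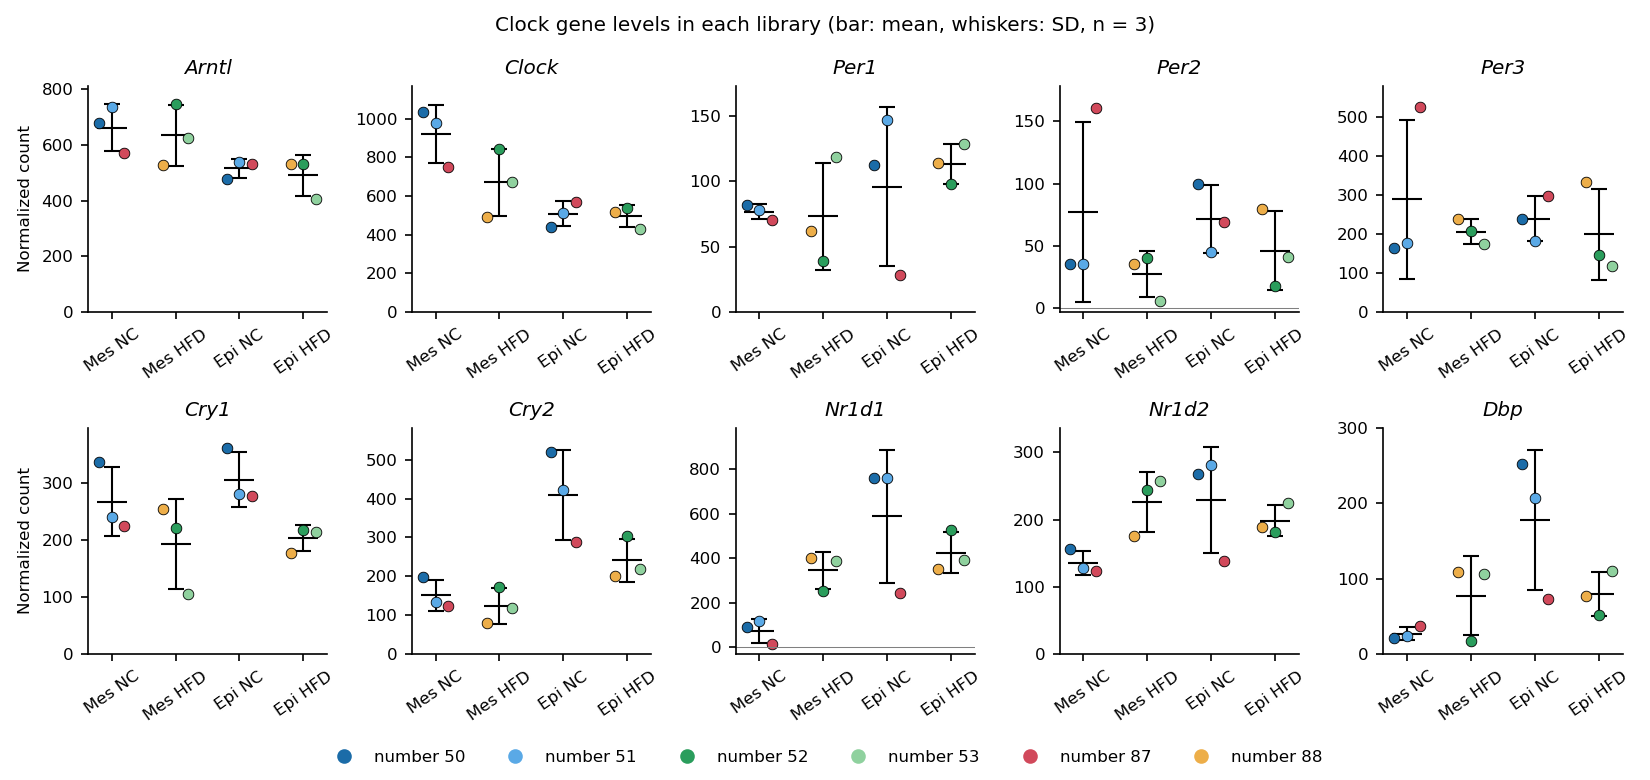
Normalized counts of the 10 clock genes (vertical axis, linear) in each of the 12 libraries by group, coloured by library number, with the mean and SD of 3 libraries as lines. Nr1d1, Dbp and Cry2 stand higher in epididymal fat on chow, and the libraries numbered 87 are the lowest Nr1d1 values of both chow groups.

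Sets of cell type markers differed along with these genes on chow. Markers counted below as higher or lower are those called in limma. Summed adipocyte markers were 374624 to 593305 in epididymal fat and 119581 to 147212 in mesentery, with 6 of 8 higher. Most of these sums was Fabp4, with group means of 421031 and 127841, so they follow mainly this gene and do not measure adipocyte content. Among the rest, Adipoq had means of 6544 against 569, Plin1 of 899 against 91.1 and Lipe of 860 against 882. Adipocyte estimates were positive for 7 of 8. Fibroblast markers were 17556 to 55549 against 6250 to 9516 (5 of 5 higher), and smooth muscle and pericyte markers 11841 to 21854 against 1275 to 1496 (4 of 6 higher). Macrophage and leukocyte markers were 4580 to 73421 against 1255 to 6147 (1 of 8 higher), and Adgre1 was at 0 in mesentery library B. Estimates of these markers were positive for 8 of 8, with a median log2 difference of 2.38. Endothelial markers summed to 62546 to 76462 against 92996 to 140768, with 1 of 8 higher and 5 lower. Pancreatic acinar genes were 183 to 243 in epididymal fat against 22403 to 149609 in mesentery, with 6 of 6 lower. Mesothelial markers, of which 3 of 4 were tested, summed to 243 to 435 against 21.1 to 55.8, and in mesentery Wt1 was at 0 in all 3 libraries, Lrrn4 in A and B and Msln in C. The 3 listed red blood cell genes summed to 35002 to 43934 against 312 to 396. The part of these cells in the clock gene differences was not tested.

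Exons of 4 members share bases with a gene on the opposite strand in the GENCODE M21 annotation, and whether reads were counted by strand is not given in the sources used here. Nr1d1 shares 263 bases with Thra, Dbp 539 with Sphk2, Cry2 295 with D930015M05Rik, and Arntl 33 with Gm45355. The partners that could be read had overlapping groups on chow. Thra differed by -0.06 (adjusted p = 0.903) and Sphk2 by 0.44 (adjusted p = 0.653) on the log2 scale between the tissues.

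No member passed between the tissues on the high fat diet. The count was 0 of 10 with limma, against 8.34% of all genes. An unadjusted p of 0.05 was passed by 1 of 10 members and by 4661 of the 22238 genes. DESeq2 and edgeR on the reads recovered from the values also called 0. Groups without overlap numbered 1 of 10, against 26.4% of all genes. The median log2 difference was 0.23 over the members and 0.06 over all genes.

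Cry2 was the member without overlap, at 80.4, 173 and 120 in mesentery and 200.1, 303 and 219 in epididymal fat. Its log2 difference was 0.99 (95% interval 0.27 to 1.71, 1.99-fold, adjusted p = 0.0902). It passed with the library number as a replicate block (adjusted p = 0.0372) and with the number range (50 to 53 against 87 and 88) as a covariate (adjusted p = 0.0265). Nr1d1 had 398, 251 and 385 in mesentery against 353, 527 and 393 in epididymal fat, and Dbp had 108, 16.6 and 107 against 76.4, 52 and 110. Both genes overlapped, with log2 differences of 0.31 (-1.12 to 1.73) for Nr1d1 and 0.38 (-1.12 to 1.87) for Dbp. Clock and Arntl were again lower by the means in epididymal fat, by -0.41 (-0.88 to 0.07) and -0.37 (-0.78 to 0.05), with overlapping groups. Macrophage and leukocyte markers summed to 131314 to 327534 in epididymal fat against 3419 to 22295 in mesentery. Their estimates were positive for 8 of 8, and 6 of 8 were called higher. Fibroblast markers summed to 42505 to 58176 against 4271 to 9057, with 5 of 5 called higher. Of the adipocyte markers 0 of 8 were called higher and 1 lower. Endothelial markers summed to 35483 to 68180 against 89090 to 107055, with 1 of 8 called higher and 6 lower. The part of these cells in the values was not tested.

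That Nr1d1 and Dbp passed on chow and not on the high fat diet does not show that the diet changed the tissue difference, so the difference of the diet changes (epididymal minus mesenteric) was tested in the same fit. No member passed in limma (0 of 10, against 0.0045% of all genes). Unadjusted p was under 0.05 for 2 of 10 members and for 1047 of the 22238 genes. DESeq2 and edgeR also called 0 members. Nr1d1 had -3.00 on the log2 scale (95% interval -5.01 to -0.98, adjusted p = 0.661), and over the alternatives its estimate lay between -3.57 and -2.02 with adjusted p from 0.120 to 1.00. Dbp had -2.15 (-4.26 to -0.03, adjusted p = 1.00). The median was -0.08 over the members and 0.11 over all genes.

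**Figure D2:**
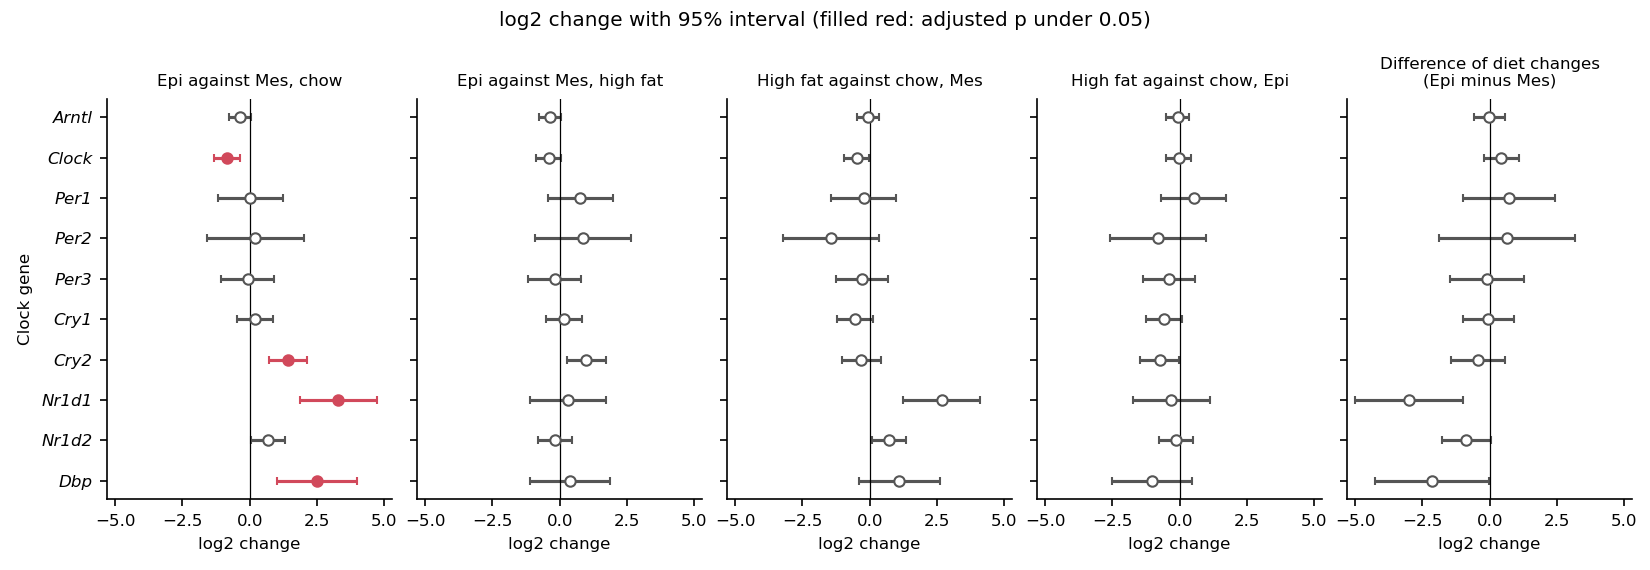
log2 difference of each clock gene (horizontal axis) with its 95% interval in the 5 comparisons, filled red where the adjusted p in limma was under 0.05. Filled points appear in the tissue comparison on chow alone, for Clock, Cry2, Nr1d1 and Dbp, and the intervals of Arntl and Clock are the narrowest.

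In mesenteric endothelial cells the high fat diet was compared with chow. Nr1d1 and Nr1d2 were higher in every library on the high fat diet than in every chow library, but no member passed the test. The count in limma was 0 of 10, against 0.0135% of all genes, which is 3 genes. Unadjusted p was under 0.05 for 3 of 10 members and 1367 genes. DESeq2 on the reads recovered from the values called 1 member, Nr1d1, and 150 genes, and edgeR 0 members and 1 gene. Groups without overlap numbered 2 of 10, against 9.61% of all genes, and the median was -0.25 over the members and -0.00 over all genes. Macrophage and leukocyte markers summed to 1255 to 6147 on chow and 3419 to 22295 on the high fat diet, with positive estimates for 8 of 8, a median log2 difference of 2.28 and 0 of 8 called in limma (4 of 8 at an unadjusted p under 0.05). Of the adipocyte markers 1 of 8, Lep, was called higher (adjusted p = 0.0210). Endothelial markers had negative estimates for 7 of 8, with a median log2 difference of -0.31 and 0 of 8 called. Their part in these values was not tested.

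Nr1d1 had 91.1, 116 and 12.7 on chow and 398, 251 and 385 on the high fat diet. The lowest value on the high fat diet was above the highest on chow. The log2 difference was 2.68 (SE 0.66, 95% interval 1.26 to 4.11), 6.42-fold, with an adjusted p of 0.395, and its p ranked 74 among 22238 genes. Without chow library C, numbered 87, it was 1.71, and over libraries numbered 50 to 53 alone 1.59 (adjusted p = 0.107). DESeq2 on the recovered reads put it at 2.23 with an adjusted p of 0.0400, and edgeR at an adjusted p of 0.664. Its exon partner Thra differed by -0.27 (adjusted p = 0.951).

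Nr1d2 had 156, 127 and 124 on chow and 175, 244 and 258 on the high fat diet, without overlap. Its log2 difference was 0.72 (0.08 to 1.35, 1.64-fold, adjusted p = 0.728). Clock, a target of REV-ERB repression, had 1033, 980 and 749 against 494, 845 and 672, with a log2 difference of -0.48 (-0.95 to -0.01) and an adjusted p of 0.803. The groups of Clock overlapped through library B on the high fat diet. Arntl was at -0.07 (-0.48 to 0.34). Dbp was split on the high fat diet, with 108 and 107 in libraries A and C and 16.6 in library B, the latter below all 3 chow libraries. Library B rests on 12 Dbp reads and had a macrophage and leukocyte marker sum of 3419, against 22295 in A and 20759 in C, and a part of those cells was not tested.

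The Per and Cry genes all had negative estimates in mesentery, with overlapping groups. They were -0.22 for Per1, -1.45 for Per2, -0.28 for Per3, -0.54 for Cry1 and -0.31 for Cry2. Per1 and Per3 turned positive in some alternatives, up to 0.16 and 0.26. Per2 had the widest interval, from -3.24 to 0.35, and its libraries ran from 34.9 to 161 on chow and from 5.93 to 40.2 on the high fat diet. The lowest value of 5.93, in library C, stands for 6 reads. Without this library the Per2 estimate was -0.62, and without chow library C it was -0.73.

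In epididymal endothelial cells no member passed between diets. Estimates were lower on the high fat diet for 9 of 10 members, Per1 being the exception. Those of Clock (-0.04), Arntl (-0.08) and Nr1d2 (-0.15) were small and turned positive in some alternatives, up to 0.062, 0.049 and 0.035. Per1 turned negative in some, down to -0.20. The count in limma was 0 of 10, against 0.549% of all genes, which is 122 genes. Unadjusted p was under 0.05 for 1 of 10 members and 1543 genes, and DESeq2 and edgeR also called 0 members. Groups without overlap numbered 1 of 10, against 13.5% of all genes. The median was -0.35 over the members and 0.10 over all genes. Cell type markers differed beside this. Macrophage and leukocyte markers summed to 4580 to 73421 on chow and 131314 to 327534 with the other food, with positive estimates for 8 of 8, a median log2 difference of 3.92 and 1 of 8 called higher. Of the fibroblast markers 2 of 5 were called higher and of the adipocyte markers 3 of 8 lower. Endothelial markers summed to 62546 to 76462 on chow and 35483 to 68180 on the high fat diet. Their estimates were negative for 7 of 8, with a median log2 difference of -0.53 and 0 of 8 called. Their part in these values was not tested.

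Cry1 was the member without overlap, at 361, 280 and 277 on chow and 176, 218 and 214 on the high fat diet. Its log2 difference was -0.59 (95% interval -1.26 to 0.09, adjusted p = 0.859). Cry2 had 519, 422 and 287 against 200.1, 303 and 219, with a difference of -0.75 (-1.46 to -0.03, adjusted p = 0.668). Only epididymal library C on chow and library B on the high fat diet crossed. Dbp had 252, 207 and 73.5 against 76.4, 52 and 110, a difference of -1.04 (-2.53 to 0.46). Here too chow library C lay among the values of the other diet, and without it the difference was -1.58. Nr1d1 differed by -0.31 (-1.74 to 1.11), Nr1d2 by -0.15, Arntl by -0.08 and Clock by -0.04, all with overlap.

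The Per genes overlapped between diets in epididymal fat. Per1, which is also induced by glucocorticoids and by immediate early signals, had 112, 147 and 28.6 on chow against 114, 97.4 and 128, a difference of 0.52 (-0.69 to 1.73). Per2 had 99.5, 45.2 and 69.4 against 79.8, 17.3 and 41.1, and Per3 had 237, 182 and 297 against 332, 145 and 119. The lowest Per1 of the chow group, in library C, came with the lowest sum of immediate early genes, at 21667 against 46958 and 38934. In mesentery on the high fat diet the lowest Per1 (38.8) and the lowest sum (22710) were both in library B. In mesentery on chow library C had the lowest Per1 (70.4) and the highest sum (38067). In epididymal fat with high fat feeding the lowest Per1 (97.4) was in library B, with a sum of 56821, and the lowest sum (30301) in library A, with Per1 at 114. Between tissues 1 of 10 immediate early genes was higher in epididymal fat on chow and 3 of 10 on the high fat diet. Of 4 glucocorticoid-induced genes 0 were higher on either diet, while 1 was lower on chow and 2 with high fat feeding. A part of these signals in Per1 was not tested.

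The order of the 4 group means differed from gene to gene. Arntl (662 ± 83.6 in mesentery on chow, 634 ± 110 there on the high fat diet, and in epididymal fat 515 ± 34.1 with chow and 491 ± 72.4 with the high fat diet; SD, n = 3 libraries) and Clock (921 ± 151, 670 ± 176, 509 ± 64.3 and 496 ± 57.7) had the same order of means. Single libraries of neighbouring groups in this order overlapped for both genes. Nr1d1 was lowest in mesentery on chow (73.1 ± 53.8), followed by mesentery on the high fat diet (345 ± 81.7), epididymal fat on the high fat diet (424 ± 91.1) and epididymal fat on chow (587 ± 298). Dbp began with the same group (27.2 ± 8.21), followed by mesentery (77.3 ± 52.5) and epididymal fat (79.4 ± 29.0) on the high fat diet and epididymal fat on chow (177.5 ± 92.9). The first step of Nr1d1 had no overlap between neighbours, while its later steps and all steps of Dbp overlapped.

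Cry2 was lowest in mesentery on the high fat diet (124 ± 46.6), followed by mesentery on chow (151 ± 40.4) and then by epididymal fat on the high fat diet (241 ± 54.9) and on chow (409.5 ± 117). The step between the tissues had no overlap, and the steps between the diets did. Cry1 was lower on the high fat diet in mesentery (193 ± 78.1) and epididymal fat (203 ± 22.8) than on chow (267 ± 60.1 and 306 ± 47.8), and the step from epididymal fat on the high fat diet to mesentery on chow was the one without overlap. Nr1d2 was lowest in mesentery on chow (136 ± 17.7), with no overlap with the next group, epididymal fat on the high fat diet (198 ± 22.9), while mesentery on the high fat diet (226 ± 44.4) and epididymal fat on chow (229 ± 78.5) overlapped with it. For the Per genes no step was free of overlap. Per1 was lowest in mesentery (73.0 ± 41.1) and highest in epididymal fat (113 ± 15.3), both on the high fat diet. Per2 ran from 27.2 ± 18.6 to 76.9 ± 72.4 and Per3 from 199 ± 116 to 288 ± 204, both highest in mesentery on chow, where library C was far above A and B. For Per2 the mean of normalized counts was thus higher in mesentery than in epididymal fat on chow (71.4 ± 27.2), whereas the mean of log2 values was higher in epididymal fat (the difference of 0.21 above).

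Single libraries stood far from their groups in different members. In the libraries numbered 87 Nr1d1 lay -1.9 log2 units from its group mean in mesentery and -1.1 in epididymal fat. In mesentery on chow this library had the highest Per2 (161) and Per3 (524), and among the epididymal chow libraries the lowest Per1 (28.6) and Dbp (73.5). The mesenteric library numbered 87 also had the fewest reads of all libraries, at 8348897. Its pancreatic acinar sum was 22403, against 149609 in A and 117869 in B. Its macrophage and leukocyte sum was 6147, against 1255 in A and 1331 in B. The epididymal library numbered 87 had the lowest macrophage and leukocyte sum of its group, at 4580. A part of depth or of these cells was not tested. Mesentery library B on the high fat diet lay -1.7 from its group for Dbp, and library C -1.7 for Per2. As a description over 12 libraries, deviations from the group mean had the same sign in 11 for Arntl and Clock and in 11 for Per2 and Per3. The sign was also the same in 10 for Cry2 and Nr1d2. Signs were opposite in 10 for Arntl and Dbp and in 10 for Per2 and Nr1d1. These are the most extreme of all pairs of members. For Arntl and Nr1d1 signs were the same in 6 and opposite in 6, as for Nr1d1 and Dbp. These values share library and scaling and are given with no test. In the mesenteric and epididymal library of the same number, members deviated in the same direction in 35 of 60 cases (58.3%), against 55.0% over all genes, and whether a number marks the same mice is not stated.

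**Figure D3:**
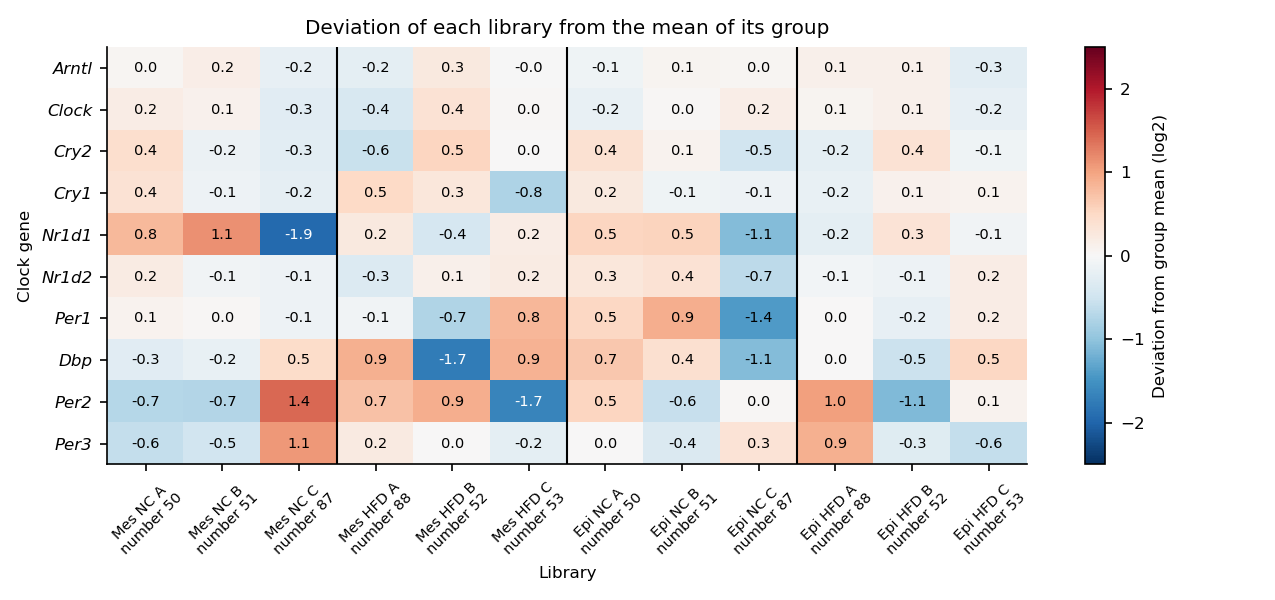
Deviation of each library from its group mean (log2, colour and printed value) for the 10 clock genes, with columns ordered by group and labelled by library number. The Nr1d1 row is lowest in the libraries numbered 87, and the Arntl and Clock rows have the same sign in 11 of 12 libraries.

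Genes with the most similar pattern to Dbp and to Arntl were taken by Pearson's r of the deviations from the group means over the 12 libraries, within the genes whose mean reached 100. For Dbp these were Timp2 and Galns (r = 0.96 each), Cd302 (0.95), Tepsin and Lcp2 (0.94 each), and the most opposite included Dip2a (-0.89), Gatad1 (-0.88), Rhobtb1 (-0.86) and Acacb (-0.85). For Arntl the most similar included Zzef1 (0.95), Clock (0.92), Itpr1 and Xndc1 (0.91 each), and the most opposite Ormdl1 (-0.93), Adamts4 (-0.91), Tefm (-0.89), Rara and Lmo4 (-0.88 each). Clock, the binding partner of ARNTL, was thus among the 5 genes most like Arntl. These values of r are the extremes of 9882 genes searched for Dbp and 9881 for Arntl, share libraries and scaling, and are a description.

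A ratio of members within a library does not depend on the scaling of the library. The log2 ratio of Dbp to Arntl was -4.97, -4.98 and -3.96 in the mesentery chow libraries, whereas those on the high fat diet had -2.28, -5.49 and -2.55. Epididymal libraries had -0.92, -1.38 and -2.85 on chow and -2.80, -3.35 and -1.89 on the high fat diet. On chow the tissues did not overlap, and on the high fat diet mesenteric libraries A and C lay within the epididymal range and B below it. The log2 ratio of Nr1d1 to Arntl was -2.89, -2.67 and -5.50 in mesentery on chow, against -0.41, -1.58 and -0.70 on the high fat diet. The epididymal libraries had 0.67, 0.50 and -1.13 on chow and -0.59, -0.01 and -0.05 on the high fat diet. All 3 mesenteric chow libraries were below the other 9 for this ratio. The ratios compare libraries and say nothing of which gene has more RNA.

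**Figure D4:**
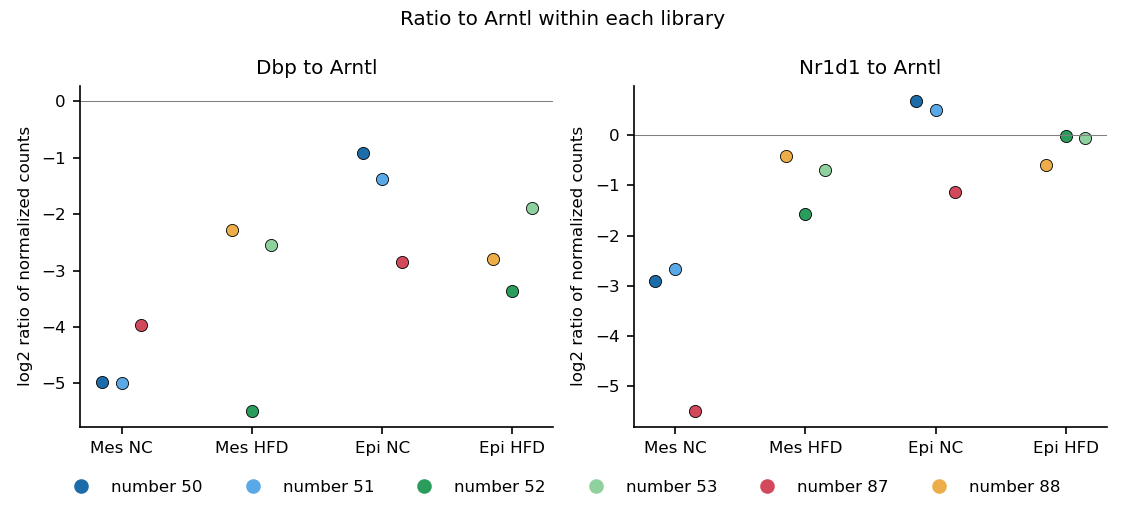
log2 ratio of Dbp to Arntl (left) and of Nr1d1 to Arntl (right) in each of the 12 libraries by group, coloured by library number. For Nr1d1 the 3 mesentery libraries on chow, from -5.50 to -2.67, lie below all others.

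Of the other genes of the clock network, 22 were tested. On chow 3 of 22 were higher in epididymal fat and 0 lower, near the 12.8% of all genes called there, with a median of -0.06, against -0.08 over all genes. The groups did not overlap for 8 of 22, against 28.7% of all genes. Tef, a PAR-bZIP factor like Dbp, had 189, 119 and 145 in mesentery and 442, 399 and 277 in epididymal fat, without overlap. It was 2.45-fold higher (log2 difference 1.29, SE 0.36, adjusted p = 0.0317), but did not pass without mesentery library B or C or epididymal library A or B, with an adjusted p of up to 0.132. Usp2, a deubiquitinase driven by the clock, had 91.1, 43.9 and 39.4 against 239, 121 and 143 and was 2.93-fold higher (log2 1.55, SE 0.44, adjusted p = 0.0331). The groups of Usp2 did not overlap, but it passed in 9 of 17 alternatives. Tspan4, a tetraspanin, was 2.02-fold higher (log2 1.01, SE 0.18, adjusted p = 0.0027) and passed in 17 of 17.

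The remaining PAR-bZIP and E-box genes did not pass on chow. Nfil3, which opposes Dbp at D-boxes, differed by -0.67 (adjusted p = 0.196). Bhlhe40, a repressor at E-boxes, differed by -0.86 (adjusted p = 0.0556) with no overlap of the groups, and its relative Bhlhe41 by 1.28 (adjusted p = 0.529). Npas2, which can stand in for Clock, differed by 1.11 (adjusted p = 0.441). On the high fat diet 0 of 22 were higher and 2 lower in epididymal fat, near the 8.34% of all genes called, with a median of -0.05. These were Timeless, which acts in DNA replication, at -0.76 (adjusted p = 0.0454), and Tsc22d3, a glucocorticoid-induced gene, at -0.95 (adjusted p = 0.0389). Timeless passed in 6 and Tsc22d3 in 10 of 17 alternatives. Ciart, a repressor of the ARNTL and CLOCK pair, differed there by -1.46 (adjusted p = 0.174) and Npas2 by 1.5 (adjusted p = 0.324).

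Between diets 0 of 22 passed in limma in either tissue or in the difference of diet changes. Unadjusted p was under 0.05 for 1 of 22 in mesentery, 3 of 22 in epididymal fat and 1 of 22 for the difference. Over all 22238 genes these counts were 1367, 1543 and 1047, in that order. Of the 22, 2 had groups without overlap in mesentery and 4 in epididymal fat, against 9.61% and 13.5% of all genes. Estimates in epididymal fat were negative for 17 of 22, with a median of -0.30, against 0.10 over all genes. Hlf, the remaining PAR-bZIP factor, differed by -1.29 (adjusted p = 0.368) and Tef by -0.80 (adjusted p = 0.687), both without overlap. Ciart differed by -1.19 (adjusted p = 0.807). Nfil3 lay on the other side, at 0.83 (adjusted p = 0.453), also without overlap. In mesentery the median was -0.03, and Bhlhe40 differed by -0.70 without overlap (adjusted p = 0.718). In the difference of diet changes the median was -0.28.

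**Figure D5:**
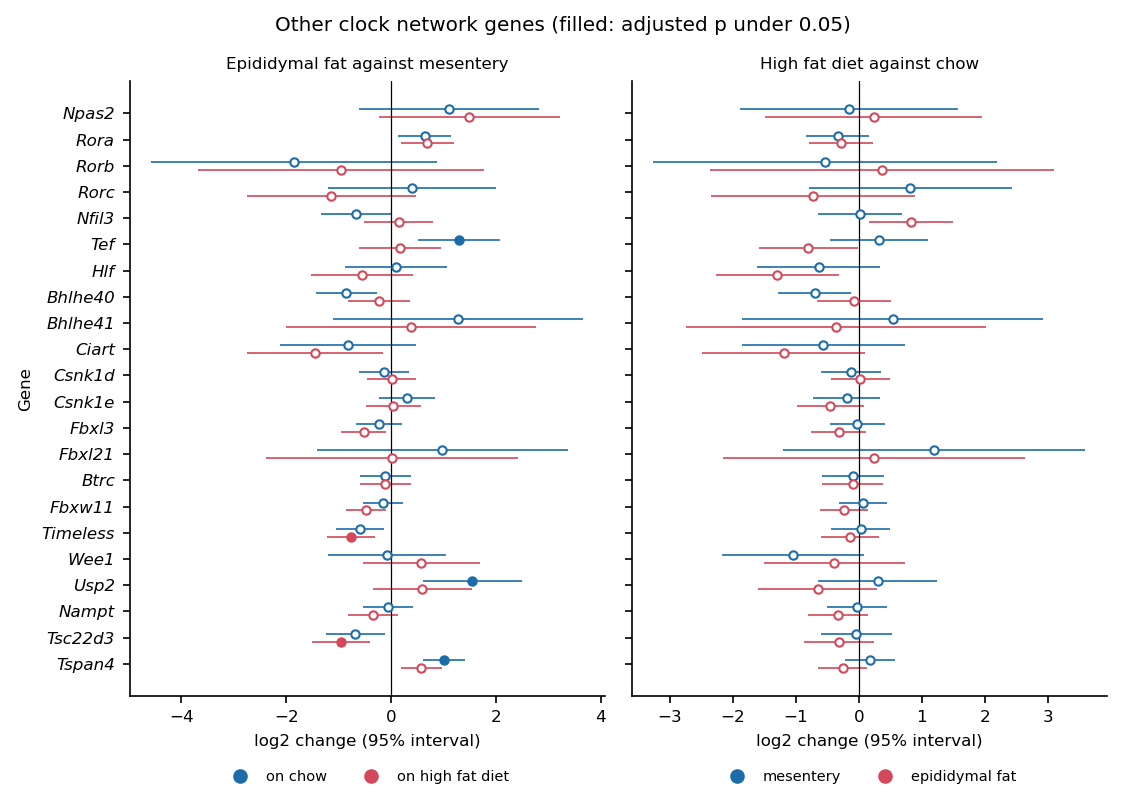
log2 difference with its 95% interval for 22 other clock network genes, between tissues on each diet (left) and between diets in each tissue (right), filled where the adjusted p in limma was under 0.05. Tef, Usp2 and Tspan4 are filled on chow, and Timeless and Tsc22d3 on the high fat diet, all in the left panel.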

How the data were processed

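The table holds 27825 genes in 12 libraries as normalized counts, a signal deposited by the authors that is never negative. The submitters' processing notes name STAR 2.7.9a, Subread, featureCounts, DESeq2 1.34.0 and the build mm39, without their settings. Values of a library came as multiples of a common step, so whole reads were recovered (100% of values, tolerance 1e-06), and these reads were used for depth and for count tests. The lowest total of a listed gene was 51 reads.

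Comparisons were tested in R 4.3.3 with limma 3.58.1 and a mean-variance trend on log2(normalized count + 1), over 22238 genes with a mean of at least 10, with the 4 group means in one fit and Benjamini-Hochberg adjustment within a comparison. The threshold was an adjusted p of 0.05, tests were two-sided, and folds are on the log2(value + 1) scale, which understates changes of low genes. Each group had 3 libraries. The fit was tested on simulated data. Alternatives were other pseudocounts, filters, scaling, edgeR 4.0.16, DESeq2 1.42.0, blocks and leaving out libraries. All members were named. From 22 other network genes those past the threshold were named, with Tef, Hlf, Nfil3, Bhlhe40, Bhlhe41, Ciart and Npas2 in any case. For likeness the rule took the 5 highest and the 5 lowest r with Dbp and Arntl, without predicted genes, and some of these are not reported here. Thra and Sphk2 were added for their shared exons. Members and lists were chosen with earlier results of these data known. Counting intervals are not given, since reads carry no molecular identifiers.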

Additional observations from a re-analysis of the deposited data

How the results depend on the processing

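The 4 members called between tissues on chow passed in every alternative that left out no single library. Without 1 library the count was 1 to 5. DESeq2 called 1 member for diet in mesentery, and the replicate block and the number range covariate each 1 member (Cry2) between tissues on the high fat diet, in place of 0. Same-numbered libraries deviated with correlations from -0.15 to 0.58, not all above 0.1, so they were not treated as pairs. Each library was also compared with the 3 of the other tissue on the same diet. Of the 12 libraries 7 correlated best with the 1 of their own number. The replicate block kept 4 members on chow and moved the calls over all genes from 2843 to 2816. Over all genes DESeq2 called 150, 563, 2931 and 130 (diet in mesentery and then in epididymal fat, tissue on the high fat diet, difference of diet changes), and edgeR 1, 29, 1021 and 1, in place of 3, 122, 1854 and 1. Rescaling the libraries to equal totals moved the median of all genes for diet in mesentery from -0.00 to 0.13.

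No called estimate changed sign, and 52 of 985 comparisons did, all for estimates of at most 0.65. With equal totals Arntl was 0.068 for diet in mesentery, Per3 0.011 between tissues on chow and Cry1 -0.024 on the high fat diet. With libraries 50 to 53 alone, Per3 was 0.15 for diet in mesentery and 0.29 between tissues on chow, Clock 0.013 and Per1 -0.20 for diet in epididymal fat, and Per2 -0.20 and Cry1 0.34 for the difference of diet changes. With edgeR and DESeq2 Per2 was -0.035 and -0.11 between tissues on chow, and Per3 0.13 and 0.22 for the difference. The cause was not tested.

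Without 1 library each, diet estimates in mesentery ranged from -0.20 to 0.056 for Arntl, -0.64 to 0.16 for Per1 and -0.57 to 0.26 for Per3. In epididymal fat they ranged from -0.47 to 0.035 for Nr1d2, -0.13 to 0.062 for Clock, -0.19 to 0.97 for Per1 and -0.15 to 0.049 for Arntl. Between tissues on chow they ranged from -0.15 to 0.93 for Per2, -0.42 to 0.74 for Per1 and -0.38 to 0.46 for Per3, and on the high fat diet from -0.50 to 0.82 for Dbp, -0.23 to 0.41 for Cry1 and -0.63 to 0.11 for Per3. For the difference they ranged from -0.65 to 0.19 for Per3, -0.43 to 0.20 for Cry1, -0.14 to 0.12 for Arntl and -0.18 to 1.20 for Per2.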
